A study of Rattus with 9 samples.

Results

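Neutrophil granule and antiprotease genes are described here in single cells of the rat extrahepatic bile duct after liver transplantation (LT). The set held 8 genes of the 23836 gene symbols measured, namely Mmp8, Mmp9, Slpi, Pglyrp1, Lcn2, Retnlg, Mcemp1 and G0s2, and each symbol matched 1 row of the deposited tables. The genes were selected on values from these data, with their levels in sham and transplanted samples and in neutrophils already known. Levels against sham and levels between cell types are therefore given as descriptions without a test. The tests concern raised arterial flow against transplantation alone and the days after LT.

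The tissue was bile duct of Sprague-Dawley rats, the strain named in the study's methods. The 3 sham samples had 1 library each. The ctrl group had grafts with ischemic injury, taken post-LT at days 1, 3 and 7 with 3 libraries per day, and the study's methods describe warm ischemia in situ for its transplants. The treat group had the same model with the splenic and gastroduodenal arteries tied to raise hepatic arterial flow, sampled on the same days with 3, 2 and 3 libraries. Another library of treat day 3 was not analysed here. Each transplant day is therefore 1 sample per arm, and the ctrl and treat samples also differ in day. The labels do not say whether samples or libraries came from separate rats, so p-values measure only the spread between these samples, which may be technical.

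A neutrophil stores its proteins in granules that are filled as the cell matures in bone marrow and emptied in tissue. Azurophil granules carry serine proteases such as elastase, specific granules carry lactoferrin, lipocalin and collagenase, and gelatinase granules carry the enzyme that opens basement membranes. Antiproteases limit the damage that these enzymes do, and epithelium makes some of the same defense proteins itself. Lipocalin and SLPI are known products of inflamed mucosal epithelium as well as of leukocytes.

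Depth and cell composition framed every value. The deposited matrices held 21270647 to 290590249 UMIs (unique molecular identifiers, each 1 captured RNA molecule) per sample, and filtering left 139686 cells, between 2272 and 31708 per sample. Libraries 2 and 3 of ctrl day 3 lost 2479 of 2923 and 3966 of 4312 barcodes to the hemoglobin limit, so nearly all cells of that sample came from library 1. Sham sample 1 stood apart, with 3.17% neutrophil-like cells against 0.0539% and 0.063% in the other sham samples. Those were 72, 5 and 7 cells. The levels of sham sample 1 in neutrophil-like cells thus rest on few UMIs for some genes, 35 for Mmp8, 15 for Mmp9 and 29 for Pglyrp1. Barcodes with 100 UMIs or fewer, which hold free RNA, had 7 of the 8 genes above sham in all 6 transplant samples, as for 4.52% of 16422 genes. Libraries shared at most 1.28% of the cell barcodes of the smaller library.

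The label of the set held for some of its genes. Of all UMIs in cells, neutrophil-like cells held 96.9% of Retnlg, 96.2% of Mmp8, 93.6% of Pglyrp1, 71.1% of Mmp9, 70.5% of G0s2 and 67.5% of Mcemp1. They held 29.9% of the UMIs of Slpi and only 2.49% of those of Lcn2, of which BEC-like cells (biliary epithelial cells) held 47.8%. In these samples Lcn2 was thus mostly an epithelial and stromal transcript, and Slpi a transcript of several myeloid classes. These shares pool samples that differ. In single transplant samples neutrophil-like cells gave as little as 39.3% of the UMIs of Mmp9 (ctrl day 7) and 33.1% of those of Mcemp1 (treat day 3, where monocyte-like cells gave 57.3%), and in sham samples 2 and 3 they gave 1.58% and 1.41% of those of G0s2. The share of Lcn2 from BEC-like cells was 35.7% in ctrl day 1 and 23.3% in treat day 1, and 64.4% to 88.3% in the other samples. Cell classes were named from marker genes, and the 8 genes were left out of the clustering.

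**Figure D1:**
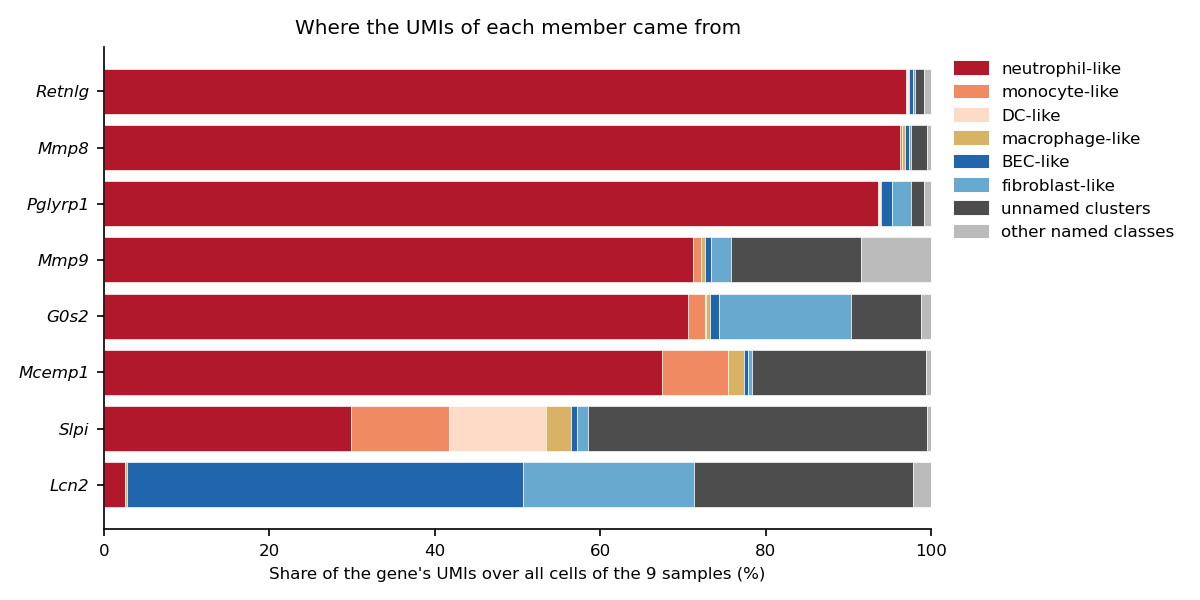
Share of each gene's UMIs (horizontal axis, percent of all UMIs of the gene in cells of the 9 samples) by cell class, 1 bar per gene. Neutrophil-like cells (red) hold 96.9% of Retnlg and 2.49% of Lcn2, while BEC-like cells (dark blue) hold 47.8% of Lcn2.

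Neutrophil-like cells were counted first, since they carry most of the set. They were 26.7%, 30.9% and 7.67% of cells in ctrl at days 1, 3 and 7, and 12.0%, 7.37% and 3.64% in treat at the same days. The 95% Wilson intervals of these shares, which cover counting error only, reached from 3.42% to 3.88% for treat day 7 and from 29.9% to 32.0% for ctrl day 3. The share was lower in treat than in ctrl on each of the 3 days, although treat day 1 lay above ctrl day 7. Median UMIs per neutrophil-like cell were 2097, 1653 and 1477 in ctrl and 1763, 1229 and 1278 in treat on the same days. A cell was kept only above a gene limit, and how many neutrophils fell below that limit in each arm was not tested. The share was 4.39% in ctrl day 7 and 2.64% in treat day 3 without library 2 of each, and 1.99% in treat day 7 without its library 2, while treat day 3 was at 12.9% without its library 3. The means were 21.8% ± 12.4 (SD, n = 3) in ctrl and 7.68% ± 4.21 (SD, n = 3) in treat, and the exact two-sided permutation test gave p = 0.2, where the smallest p that 3 against 3 samples allow is 0.1. With the arms exchanged only within a day the exact p was 0.25, the smallest that 3 day pairs allow. The summed level of 9 neutrophil markers over all cells was also lower in treat on each day. It was at 17309, 14700 and 6678 CPM (UMI count scaled to a common total of all genes) in ctrl, 12245, 2035 and 2056 CPM in treat, and 1079, 49.9 and 98.6 CPM in sham. From day 1 to day 3 in ctrl the share rose while the sum fell. From day 3 to day 7 in treat the share fell while the sum stayed level. Within neutrophil-like cells the sum ran from 71902 CPM in sham sample 1 to 314265 CPM in treat day 1. Most of the sum in these cells came from S100a8 and S100a9, so it says little about the other markers of the list. S100a8 was also among the leading genes of an unnamed cluster outside this class. In values over all cells, the number of neutrophils, the RNA level per neutrophil and the amount of RNA from other cells cannot be told apart.

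Mmp8 (ENSRNOG00000009907) encodes neutrophil collagenase, a specific granule enzyme that cuts fibrillar collagen. The sham samples held it at 4.31, 0.22 and 0.11 CPM over all cells. Levels were 54.4, 39.9 and 26.9 CPM in ctrl and 41.6, 4.83 and 6.79 CPM in treat at days 1, 3 and 7. All 6 transplant samples lay above the highest sham sample, and treat day 1 lay among the ctrl samples. Single libraries moved these orders, since ctrl day 7 fell to 5.84 CPM without its library 2, under treat day 7, and treat days 3 and 7 were at 2.93 and 2.95 CPM without library 2 of each, under sham sample 1. In neutrophil-like cells Mmp8 was at 289 CPM in sham sample 1, at 659, 428 and 943 CPM in ctrl and at 1276, 249 and 593 CPM in treat. The arms overlapped there, with both the highest and the lowest transplant value in treat, and ctrl day 7 was at 416 CPM without its library 2.

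Mmp9 (ENSRNOG00000017539), gelatinase B of the gelatinase granules, degrades collagen of basement membranes. Over all cells it was at 1.88, 0.4 and 0.38 CPM in sham, at 69.6, 28.7 and 16.7 CPM in ctrl and at 23.3, 5.68 and 6.73 CPM in treat. Each transplant sample was above every sham sample, and treat was below ctrl on each day. At ctrl day 7 it was at 7.20 CPM without library 2, just above treat day 7. In neutrophil-like cells the values were 124 CPM in sham sample 1, 643, 274 and 244 CPM in ctrl, and 622, 218 and 306 CPM in treat. Day 1 was the highest day in both arms, and the arms lay close together at every day. Outside neutrophil-like cells, an unnamed cluster led by RGD1559482, Pf4, Slpi, Clec10a and Fcgr2a (cluster 11) held 11.6% of the UMIs of Mmp9, and NK&T-like cells held 3.08%.

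Slpi (ENSRNOG00000046699) encodes secretory leukocyte protease inhibitor, which blocks neutrophil elastase and cathepsin G. Over all cells it was at 268, 293 and 308 CPM in sham. It was at 6697, 6685 and 3203 CPM in ctrl and at 2128, 2734 and 1091 CPM in treat. The 3 groups did not overlap, with sham lowest, treat between and ctrl highest. The gap between the arms rested on single libraries, since ctrl day 7 was at 1986 CPM without its library 2, under treat days 1 and 3, and treat day 3 was at 3426 CPM without its library 2, over ctrl day 7. The ctrl mean of 5529 CPM was 19.1 times the sham mean of 289 CPM, and the treat mean of 1984 CPM was 6.86 times. These ratios to sham are descriptions, since Slpi was selected with them known.

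Pglyrp1 (ENSRNOG00000013395) encodes a peptidoglycan recognition protein of neutrophil granules that binds bacterial cell wall. In the sum of all cells Pglyrp1 was at 4.09, 1.88 and 2.06 CPM in sham, at 65.9, 62.2 and 24.2 CPM in ctrl and at 44.7, 7.57 and 6.20 CPM in treat. All transplant samples lay above sham, and treat day 1 lay between ctrl day 7 and ctrl day 3. Without library 2 of each, ctrl day 7 was at 6.67 CPM and treat days 3 and 7 were at 3.38 and 3.23 CPM, the latter pair under sham sample 1. In neutrophil-like cells it was at 240 CPM in sham sample 1, at 786, 663 and 836 CPM in ctrl and at 1343, 373 and 486 CPM in treat. Treat day 1 was the highest sample and the other treat days were below all ctrl samples, with ctrl day 7 at 465 CPM without its library 2, under treat day 7.

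Lcn2 (ENSRNOG00000013973) encodes lipocalin-2, which withholds iron from bacteria by binding their siderophores. Over all cells it was at 317, 157 and 222 CPM in sham, at 1094, 409 and 249.6 CPM in ctrl and at 1269, 802 and 466 CPM in treat. It was the only gene of the set whose level was higher in treat than in ctrl on each day, as for 20.3% of all genes tested. At day 1 this rested on library 3 of treat, without which treat day 1 was at 423 CPM, and on library 1 of ctrl, without which ctrl day 1 was at 1416 CPM. The ctrl day 7 value lay below the highest sham value. The ctrl mean was 2.52 times and the treat mean 3.65 times the sham mean.

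Retnlg (ENSRNOG00000001943) encodes a resistin-like protein of rodent neutrophils. Over all cells Retnlg was at 11.4, 1.36 and 0.14 CPM in sham, at 110, 125 and 198 CPM in ctrl and at 105, 29.9 and 34.5 CPM in treat. The 3 groups did not overlap, although treat day 1 lay just under ctrl day 1. This order did not hold without library 2 of ctrl day 7, which left 27.6 CPM there, nor without library 2 of ctrl day 1 (83.4 CPM) or library 3 of treat day 1 (154 CPM). In neutrophil-like cells it was at 587 CPM in sham sample 1, at 1345, 1354 and 7114 CPM in ctrl and at 3244, 1598 and 3032 CPM in treat. Ctrl day 7 stood far above the other samples, and its library 2 reached 9818 CPM, without which it was at 2048 CPM. Treat day 1 was at 1916 CPM without its library 1, under treat day 7.

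Mcemp1 (ENSRNOG00000028259) encodes a membrane protein of mast cells and myeloid cells. Its level over all cells was 28.4, 1.05 and 1.22 CPM in sham, 239, 246 and 76.4 CPM in ctrl and 91.1, 65.2 and 37.1 CPM in treat. Treat was below ctrl on each day, and only treat day 1 exceeded the lowest ctrl sample. Without library 2 of each, ctrl day 7 was at 35.6 CPM, just under treat day 7, and treat day 7 was at 27.1 CPM, under sham sample 1. In neutrophil-like cells it was at 1636 CPM in sham sample 1, at 2515, 1768 and 1628 CPM in ctrl and at 2019, 1172 and 1780 CPM in treat. The arms and the sham sample overlapped there.

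G0s2 (ENSRNOG00000006019) encodes an inhibitor of adipose triglyceride lipase and is abundant in neutrophils. Over all cells G0s2 was at 499, 178 and 234 CPM in sham, at 1229, 1473 and 500.5 CPM in ctrl and at 570, 527 and 265 CPM in treat. Sham sample 1, the sham sample with most neutrophil-like cells, lay above treat day 7, and also above ctrl day 7, treat day 1 or treat day 3 without library 2 of each (376, 489 and 317 CPM) and above ctrl day 7 without its library 1 (488 CPM). In neutrophil-like cells G0s2 was highest in sham sample 1, at 26520 CPM, against 13497, 14546 and 12658 CPM in ctrl and 10776, 20928 and 14557 CPM in treat. Fibroblast-like cells held a further 15.9% of its UMIs, with 771, 305 and 352 CPM in sham, 856, 303 and 283 CPM in ctrl and 422, 546 and 404 CPM in treat, where the 3 groups overlapped.

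**Figure D2:**
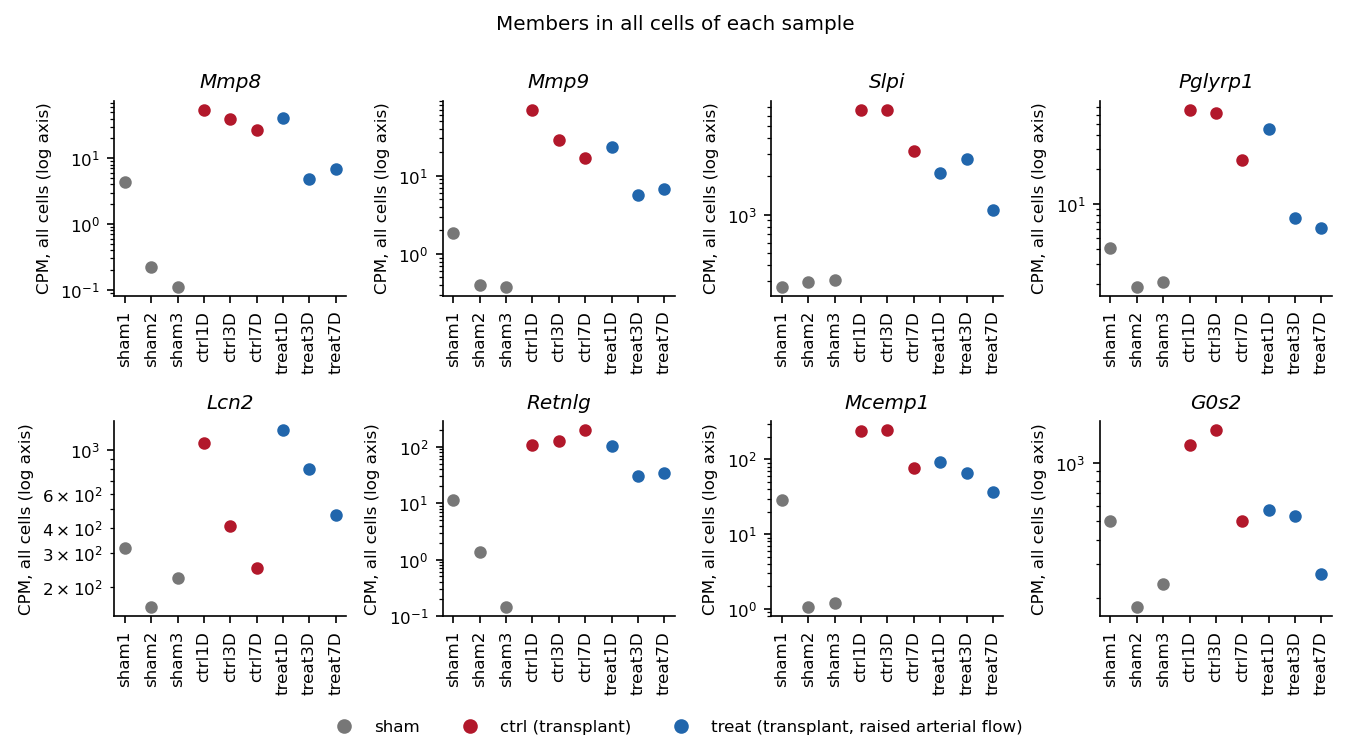
Level of each gene over all cells of each sample (vertical log axis, CPM; horizontal axis, sample), 1 point per sample, gray for sham, red for ctrl and blue for treat. All 6 transplant samples lie above the highest sham sample for 6 genes, and 5 of 6 do so for Lcn2 and G0s2. The genes were selected with this contrast known, and 3.74% of the 16422 genes tested had all 6 samples above sham.

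Raised arterial flow was compared with transplantation alone in a fit that kept the day as a block. Over all cells, 7 of the 8 genes had lower CPM in treat than in ctrl on each of the 3 days, the exception being Lcn2, and 7.95% of the 16422 genes tested were lower in this way. Fibroblast-like cells held 84214682 of the 190735339 UMIs of treat day 1, against 8176939 of the 95521092 UMIs of ctrl day 1. More RNA of other cells lowers the CPM of a neutrophil gene over all cells, and the part of this in the day 1 values was not tested. With each transplant library left out in turn, treat stayed lower on all 3 days for Mmp9, Slpi, Pglyrp1 and G0s2, while for Mmp8, Retnlg and Mcemp1 the order turned on 1 day without some libraries. These were library 2 of ctrl day 7 for all of them, library 3 of treat day 1 for Mmp8 (55.2 CPM) and Retnlg (154 CPM), and library 2 of ctrl day 1 for Retnlg (83.4 CPM). The edgeR quasi-likelihood test called none of the 8 genes at an adjusted p under 0.05, and it called 0% of the 16422 genes tested. At an unadjusted p under 0.05 it listed 589 genes, and DESeq2 called 45 genes, with Slpi and Pglyrp1 among them. The median log2 fold change (treat against ctrl) was -1.59 over the 8 genes and 0.03 over all genes tested.

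Slpi had the smallest error. Its log2 fold change was -1.55 (SE 0.21, edgeR adjusted p = 0.987, unadjusted p = 0.00021), that is 2.93-fold lower in treat, and DESeq2 gave an adjusted p of 2.26e-08. Its treat samples all lay below its ctrl samples, and Retnlg was the other gene of the set to do so, a pattern shown by 2.14% of all genes tested. Neither gene showed it without library 2 of ctrl day 7, which left Slpi at 1986 CPM and Retnlg at 27.6 CPM in that sample. The log2 fold changes of Pglyrp1, Mmp8, Mmp9, Retnlg, Mcemp1 and G0s2 ran from -1.91 to -1.22, and that of Lcn2 was 0.65. The neutrophil marker sum was lower in treat on each day too, and its part in these values over all cells was not tested.

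Within neutrophil-like cells the number of neutrophils does not enter, although the mix of their clusters does. The differences between arms there were smaller for all genes of the set that were lower over all cells. The test called 0.164% of 8542 genes and none of the set. The called genes included Bnip3 and Cxcl3, both lower in treat. They lie outside the rule for named genes and were chosen after their values were seen. For 7 genes the log2 fold changes lay between -0.41 and 0.01, with standard errors of 0.25 to 0.92. The median over the 8 genes was -0.34, beside -0.02 over all genes tested.

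Slpi was the gene of the set that was lower in treat on every day in neutrophil-like cells, as 7.82% of all genes tested were. It was at 36737, 29520 and 25317 CPM in ctrl and at 19192, 17554 and 14519 CPM in treat at days 1, 3 and 7, and at 6799 CPM in sham sample 1. The arms did not overlap, which held for 2.42% of all genes tested, with treat below ctrl. Without library 2 of ctrl day 7 that sample was at 16883 CPM, under treat days 1 and 3, and without library 2 of ctrl day 1 that one was at 19015 CPM, under treat day 1, so the arms then overlapped. The log2 fold change was -0.95 (SE 0.38, n = 3 per arm), 1.93-fold lower in treat, and edgeR's adjusted p of 0.747 missed the threshold. With 7 samples left out in turn, only leaving out treat day 3 gave a call (edgeR adjusted p = 0.0283). None of the 13 other settings called Slpi in these cells.

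The libraries spread widely around these values. Slpi ran from 14542 to 65580 CPM with a median of 26797 over 9 ctrl libraries, and from 14384 to 24024 CPM with a median of 16886 over 8 treat libraries. The highest value was in library 2 of ctrl day 1. Without that library the log2 fold change of Slpi from day 1 to day 7 in neutrophil-like cells was 0.029 in place of -0.51. A neutrophil-like cluster (cluster 28) led by S100a9, S100a8, Slpi, Cxcl2 and AABR07034362.2 drew 83.0% of its cells from ctrl day 1. It held 32.0% of the neutrophil-like cells of ctrl day 1 and 1.47% of those of treat day 1. Slpi was at 66645 CPM in cluster 28 and at 21598 CPM in cluster 0, the other cluster of this class. The part of these clusters in the Slpi difference between arms was not tested.

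**Figure D3:**
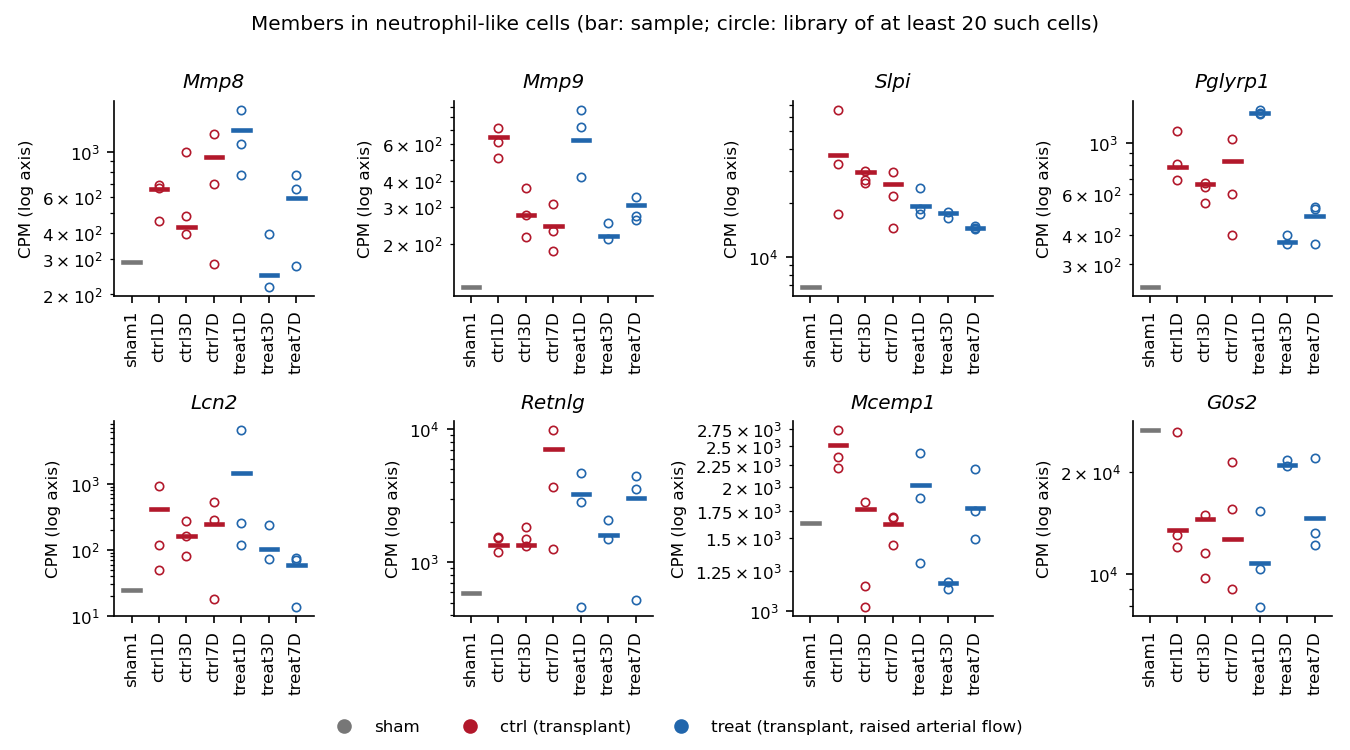
Level of each gene in neutrophil-like cells (vertical log axis, CPM; horizontal axis, sample), with a bar for the sample and open circles for its libraries with at least 20 such cells. The treat bars of Slpi, at 14519 to 19192 CPM, lie below the ctrl bars, at 25317 to 36737 CPM, while the other 7 genes overlap between arms. The Slpi bar of ctrl day 7 would stand at 16883 CPM without library 2 of that sample.

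Lcn2 in neutrophil-like cells varied with single libraries and samples. Over 17 transplant libraries it ran from 13.4 to 925 CPM in all but library 3 of treat day 1, which reached 6502 CPM. Free RNA, estimated from barcodes with 100 UMIs or fewer, would have given 84.5 CPM in that library. In 4 of the other libraries Lcn2 lay within 2 times of what free RNA would give, at 49.4 against 36.7 CPM in library 3 of ctrl day 1, 79.6 against 60.6 CPM in library 3 of ctrl day 3, and 13.4 against 7.82 CPM and 71.4 against 40.8 CPM in libraries 1 and 2 of treat day 7. With this library the log2 fold change was -0.41 (SE 0.92) in a fit over samples. Without library 3 of treat day 1 it was -1.37 and not called (adjusted p = 0.321), and without library 2 of ctrl day 1 it was 0.0233. Without treat day 1 it was -1.51 and was called, with an edgeR adjusted p of 0.0102, and it was also called without ctrl day 1 (adjusted p = 0.0291). Without ctrl day 7 or treat day 7 it was 0.62 and 0.64.

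Monocyte-like cells held Slpi at high levels and Mcemp1 at moderate ones. Slpi was at 3027 and 1710 CPM in sham samples 2 and 3, at 13512 CPM from only 22 cells of ctrl day 1, at 8823 and 6679 CPM at ctrl days 3 and 7, and at 6309, 12106 and 4292 CPM in treat. All transplant samples lay above both sham samples, and the arms overlapped, but treat day 1 and treat day 7 were at 2809 and 2636 CPM without library 1 of each, under sham sample 2. The share of all genes above sham in this way was not counted in monocyte-like cells. Mcemp1 was at 154, 278 and 227 CPM in ctrl and at 107, 219 and 128 CPM in treat, lower in treat on each day, as for 11.7% of 5967 genes tested, with a log2 fold change of -0.50 (SE 0.22, edgeR adjusted p = 0.985). An unnamed cluster with monocyte and neutrophil markers (cluster 20), led by Fcnb, Lyz2, S100a8, RGD1559482 and Vcan, stood outside this class. It held 414, 766 and 99 cells of ctrl and 1436, 28 and 87 of treat at days 1, 3 and 7, against 22, 163 and 1510 monocyte-like cells of ctrl and 81, 2961 and 1328 of treat, so the class held different parts of such cells in each sample. Mcemp1 was at 461, 477 and 268 CPM in cluster 20 of ctrl and at 274, 260 and 308 CPM in that of treat, higher in treat at day 7.

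Mmp9 was the only gene of the set called between arms in monocyte-like cells, where the test called 0.117% of 5967 genes. It was at 185, 4.50 and 18.0 CPM in ctrl and at 2.14, 0.978 and 1.37 CPM in treat. These values rest on 24, 5 and 114 UMIs in ctrl and on 1, 15 and 8 UMIs in treat. The UMIs came from few cells of the class, which was made of clusters 30 and 8. In cluster 30 Mmp9 was at 74.7 CPM, with a UMI in only 0.797% of 878 cells. In cluster 8 it was at 2.40 CPM, with a UMI in 0.637% of 5336 cells. The treat samples lay below the ctrl samples, as for 2.9% of all genes tested, but ctrl day 7 was at 0.406 CPM without its library 2 and ctrl day 3 at 0 without its library 3. The log2 fold change was -3.63 (SE 0.57, edgeR adjusted p = 0.0112). The call was lost without ctrl day 7 (adjusted p = 0.123), without libraries 2 and 3 of ctrl day 3 (0.573), without the day as a block (1) and with each library as its own sample (0.999).

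RNA of the neutrophil marker list was present in the same cells. The sum of 9 neutrophil markers in monocyte-like cells was 1085, 2635 and 2272 CPM in ctrl and 1935, 1781 and 1190 CPM in treat, while Cd177 was at 0 in every transplant sample and Fpr1 in all but treat day 7. Much of the sum came from S100a8 and S100a9, at 1305 and 944 CPM on edgeR's TMM scale in ctrl day 3. By library the sum was 407, 3320 and 743 CPM in ctrl day 7. It was 1888 and 12632 CPM in libraries 1 and 2 of ctrl day 3, and 720 and 4599 CPM in libraries 1 and 3 of treat day 1. The part of this RNA in the Mmp9 difference was not tested. Retnlg was at 0, 18.0 and 14.5 CPM in ctrl and at 2.14, 0.782 and 3.26 CPM in treat, with an edgeR adjusted p of 0.0577.

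In BEC-like cells, which line the duct, Lcn2 and Slpi moved in opposite directions between arms. Lcn2 was at 809, 593 and 746 CPM in sham, at 1453, 2164 and 1185 CPM in ctrl and at 3043, 3002 and 2016 CPM in treat. Every transplant sample exceeded sham (ctrl day 7 was at 758 CPM without its library 3, under sham sample 1), and treat was above ctrl on each day, as for 30.7% of all genes tested, with treat day 7 below ctrl day 3. The share of all genes above sham in this way was not counted in BEC-like cells. Treat stayed above ctrl on each day with any 1 transplant library left out, at 1911 CPM for treat day 1 without its library 3. The log2 fold change was 0.68 (SE 0.17), 1.60-fold higher in treat, with an edgeR adjusted p of 0.221 and a DESeq2 adjusted p of 0.00293. BEC-like cells lay in different clusters, with 85.3% of ctrl day 1 and 56.9% of treat day 1 in cluster 10, 37.6% of ctrl day 3 against 90.8% of treat day 3 in cluster 2, and 88.5% and 95.8% of the day 7 samples in cluster 2. Lcn2 was at 431 CPM in cluster 10, 2613 CPM in cluster 2 and 1903 CPM in cluster 18, the other cluster of this class. Unnamed cluster 19, led by Reg3g, Reg3b and Gpx2, stood outside the class. It held 26445582 UMIs of ctrl day 1 and 19838818 of treat day 1, against 25699321 and 18529110 in BEC-like cells. The part of these clusters in the difference was not tested. The level of Lcn2 in BEC-like cells was at least 35.5 times what free RNA would give in every sample.

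Slpi in BEC-like cells was low. It was at 47.2, 30.6 and 30.9 CPM in sham, at 165, 265 and 163 CPM in ctrl and at 140, 133 and 123 CPM in treat. The 3 groups did not overlap, and 4.28% of all genes tested had treat below ctrl in this way. How many genes also lay above sham was not counted. The arms overlapped without library 2 of ctrl day 1 (126 CPM there), library 2 of ctrl day 7 (115 CPM) or library 3 of treat day 7 (172 CPM). The log2 fold change was -0.64 (SE 0.17, edgeR adjusted p = 0.221), and DESeq2 gave 0.0282. The level was 0.926 to 5.21 times what free RNA would give, so part of it can be RNA from other cells, whose part in the difference was not tested. The sum of the neutrophil markers in BEC-like cells was 9.11, 5.22 and 23.6 CPM in sham, 243, 457 and 418 CPM in ctrl and 392, 77.7 and 380 CPM in treat. By library it was 110, 4049 and 308 CPM in ctrl day 7 and 32.3, 1220 and 71.4 CPM in treat day 7. In BEC-like cells edgeR called 0% of 13438 genes, while 1990 had an unadjusted p under 0.05 and DESeq2 called 406.

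Fibroblast-like cells held 20.6% of the UMIs of Lcn2. It was at 5.97, 3.69 and 6.48 CPM in sham, at 549, 270 and 616 CPM in ctrl and at 1202, 50.0 and 50.3 CPM in treat. Transplant samples were above sham without exception, a pattern whose share over all genes was not counted in fibroblast-like cells. The level was 0.502 to 45.1 times what free RNA would give, and over 2 times in only 5 of 9 samples. Part of it can thus be RNA from other cells, whose part in these values was not tested. Treat was above ctrl at day 1 and below it at days 3 and 7. Without library 3 treat day 1 was at 57.4 CPM, and without library 2 ctrl day 7 was at 16.3 CPM, each of which turned that day's order. The cells also lay in different clusters, with 97.5% of ctrl day 1 and 98.1% of treat day 1 in cluster 7 (led by Mgp, Dcn, Ptx3, Col3a1 and Col1a1), 79.1% to 96.9% of the later transplant samples in cluster 9 (Col1a1, Col3a1, Sparc, Lum and Dcn) and 65.2% to 81.5% of sham in cluster 6 (Col1a1, Col3a1, Dcn, Dpt and Sparc). Lcn2 was at 1135, 168 and 6.47 CPM in these clusters. Fibroblast-like cells of treat day 1 alone gave 41.8% of the UMIs of Lcn2 in that sample. The unnamed clusters 19 and 16, both led by Reg3g, Reg3b and Gpx2, genes of mucosal epithelium, held a further 18.96% and 4.50% of the UMIs of Lcn2.

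DC-like cells, the dendritic cells, held Slpi without transplantation. It was at 10089 and 11792 CPM in sham samples 2 and 3, at 19854, 11870 and 25689 CPM in ctrl and at 14837, 7143 and 11760 CPM in treat. Treat was below ctrl on each day, a pattern whose share over all genes was not counted in DC-like cells. Ctrl days 1 and 3 had only 29 and 61 such cells. Treat day 3 and treat day 7 were below the higher sham sample. The order of the arms turned at day 7 without library 3 of ctrl (10515 CPM) and at day 3 without library 2 of treat (12404 CPM). In those sham samples DC-like cells gave 75.9% and 86.3% of the UMIs of Slpi, against 0.897%, 2.35% and 24.8% in ctrl and 8.72%, 3.65% and 42.9% in treat at days 1, 3 and 7. In ctrl at days 1 and 3, neutrophil-like cells gave 44.3% and 39.4%, and in treat day 3 monocyte-like cells gave 75.7% and were 18.0% of all cells. Cluster 20 gave 16.9% in ctrl day 1, 37.1% in ctrl day 3 and 23.5% in treat day 1, and cluster 11 gave 32.2%, 12.7% and 31.9% in the same samples. The cells that carried Slpi thus differed between samples.

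**Figure D4:**
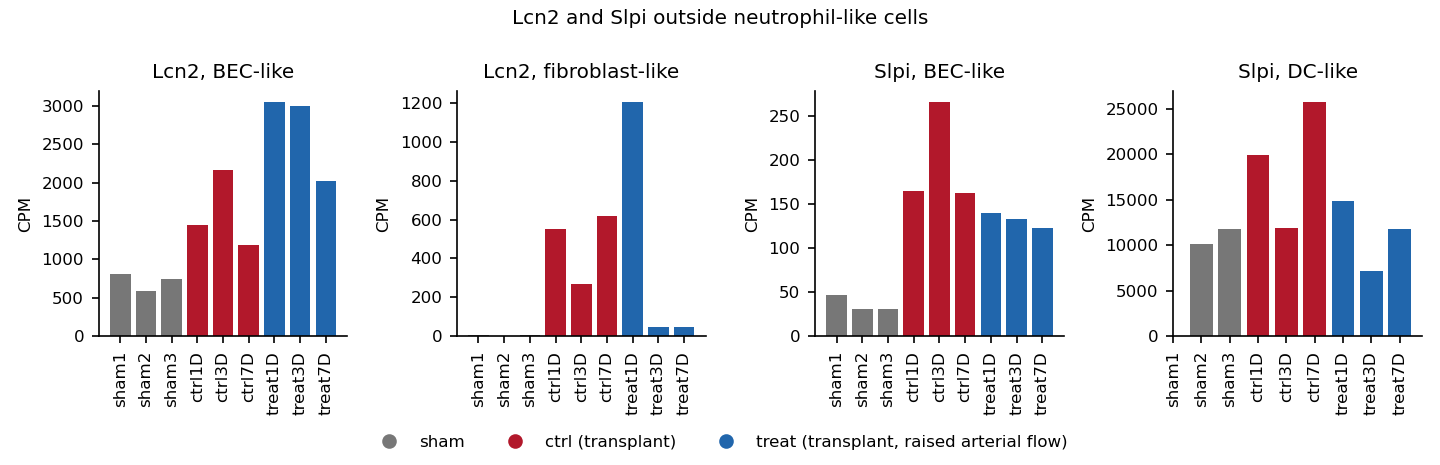
Level (vertical axis, CPM) of Lcn2 in BEC-like and fibroblast-like cells and of Slpi in BEC-like and DC-like cells, 1 bar per sample with at least 20 such cells, gray for sham, red for ctrl and blue for treat. Lcn2 in BEC-like cells is at 2016 to 3043 CPM in treat and at 1185 to 2164 CPM in ctrl, and sham sample 1 has no bar in DC-like cells.

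Days 7 and 1 were compared over both arms. Over all cells, 7 of the 8 genes had lower CPM at day 7 than at day 1 in both arms, as did 29.2% of all genes tested, and Retnlg was the exception because it was higher at day 7 in ctrl. Without library 2 of ctrl day 7 Retnlg was at 27.6 CPM there and lower than at day 1 too, and without library 3 of treat day 1 Lcn2 was at 423 CPM there, lower than at day 7. The test called 2.51% of 16422 genes and, of the set, Lcn2 with a log2 fold change of -1.88 (SE 0.33, edgeR adjusted p = 0.0458), 3.69-fold lower at day 7. This call was lost when any sample other than sham sample 1 was left out, with adjusted p-values of up to 0.422, and without library 3 of treat day 1 (-1.25, adjusted p = 0.309). The 7 other log2 fold changes ran from -2.36 for Pglyrp1 to -0.54 for Retnlg, and the median was -1.71 beside -0.03 over all genes.

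Within neutrophil-like cells 4 genes were lower at day 7 in both arms, namely Mmp9, Slpi, Lcn2 and Mcemp1, and 27% of all genes tested were. Without library 2 of ctrl day 1, Slpi (19015 CPM) and Lcn2 (111 CPM) were lower at day 1 than at day 7 in ctrl, as was Mcemp1 in treat without library 1 of treat day 1 (1659 CPM). The test called 1.4% of 8542 genes and none of the set. Mmp9 came nearest, with a log2 fold change of -1.26 (SE 0.31, edgeR adjusted p = 0.0856), 2.40-fold lower at day 7, and DESeq2 gave an adjusted p of 0.0355. In BEC-like cells, where 3.48% of 13438 genes were called, Lcn2 had a log2 fold change of -0.61 (SE 0.21, edgeR adjusted p = 0.136). Its level there was no longer lower at day 7 in treat without library 3 of treat day 1, nor in ctrl without library 1 of ctrl day 7.

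Whether the change from day 1 to day 7 differed between arms was tested over the 17 transplant libraries. Its errors and p-values measure the spread between libraries of the same sample, which may be technical, and not the spread between samples. Over all cells 0.139% of 15787 genes were called and none of the set, with log2 differences of -2.74 for Retnlg to 0.76 for Lcn2. In neutrophil-like cells 0% of 5830 genes were called by edgeR, 201 had an unadjusted p under 0.05, and the nearest gene of the set was Pglyrp1 at -1.54 (SE 0.60, unadjusted p = 0.0171, edgeR adjusted p = 1.00). DESeq2 was not run on this difference.

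The remaining genes of granules and antiproteases gave few calls. Of the listed genes outside the set, none was called between arms in any of the 4 fits. In neutrophil-like cells the median log2 fold change between arms was -0.32 over 4 tested azurophil granule genes, -0.09 over 11 specific granule genes, 0.01 over 8 gelatinase and secretory vesicle genes, 0.48 over 15 antiproteases, -0.24 over 15 surface receptors and alarmins and -0.07 over 13 myeloid transcription factors. From day 1 to day 7 in the same cells the medians were -0.15, 0.00, -0.53, -0.68, 0.15 and -0.13. Of the 15 antiproteases 1 fell and none rose, where 1.4% of all 8542 genes were called, namely Timp1, an inhibitor of metalloproteinases including Mmp9. On edgeR's TMM scale Timp1 was at 82.8, 52.9 and 25.3 CPM in ctrl and at 102, 29.96 and 20.2 CPM in treat, highest at day 1 in both arms, with a log2 fold change of -2.04 (SE 0.35, edgeR adjusted p = 0.0169).

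Over all cells, from day 1 to day 7, where 2.51% of all 16422 genes were called, 1 of 12 specific granule genes rose, Ltf, which encodes lactoferrin, yet it stayed at or below 1.35 CPM (TMM scale) in every sample. Of 16 receptors and alarmins 1 rose, Cxcr4, the receptor that retains neutrophils in marrow and is also found on lymphocytes, at 102, 191 and 258 CPM (TMM scale) in ctrl and 90.3, 155 and 252 CPM in treat. Of 13 transcription factors 1 rose, Gfi1, which directs granulocyte development and is also active in lymphocytes, at 0.474, 1.77 and 11.1 CPM (TMM scale) in ctrl and 0.916, 5.77 and 8.88 CPM in treat. Lymphocyte shares moved with both genes from day 1 to day 7, B-like cells from 0.80% to 15.1% in ctrl and from 2.27% to 8.59% in treat, and NK&T-like cells from 3.37% to 24.6% and from 5.12% to 25.3%, and their part was not tested. Of 20 antiproteases 1 fell, Spink4, at 71.3, 41.5 and 0.534 CPM (TMM scale) in ctrl and 26.0, 32.0 and 0.42 CPM in treat. Spink4 was also among the markers that named goblet-like cells, which went from 0.287% to 0.0221% of cells in ctrl and from 0.527% to 0.0233% in treat, and their part was not tested. No azurophil granule gene of 6 and no gelatinase or vesicle gene of 9 passed the test. In BEC-like cells Spink4 and the transcription factor Cebpd fell from day 1 to day 7, beside 3.48% of 13438 genes called, with log2 fold changes of -5.95 (SE 0.28) and -1.06 (SE 0.22).

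The genes most alike in pattern to each member were taken from Pearson's r of log2(CPM + 1) over 39 clusters, a description across clusters that share libraries. Mmp8 was most like Stfa2 (r = 0.963), Elane (0.957) and Fcar (0.9498), and Pglyrp1 like Stfa2 (0.942), Fcar (0.937) and Nlrp12 (0.934). Retnlg was most like Ifit1bl (0.932), AABR07034362.2 (0.931) and Stfa2 (0.926), and Mcemp1 like Csf3r (0.959), Clec4d (0.953) and Lilrc2 (0.944). G0s2 was nearest to Chi3l1 (0.893), Ifit1bl (0.844) and Fpr2 (0.818), and Mmp9 to Rufy4 (0.809), S100a9 (0.799) and F2rl2 (0.792). Slpi followed Il1b (0.888), Clec7a (0.870) and Lilrb4 (0.869), genes of several myeloid classes. Lcn2 followed Cxcl6 (0.833), Akr1b8 (0.814) and Id1 (0.767).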

How the data were processed

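Bile duct cells were profiled by droplet sequencing of RNA 3' ends (10x Genomics). The authors deposited raw UMI counts per gene and barcode, empty barcodes included. Per the labels, tissue was digested, red cells lysed and dead cells removed. The submitters' processing notes name Cell Ranger 5.0.1 and Seurat 3.2.0, the matrix headers Cell Ranger 4. The genome build is not given in the sources used here, so no coordinates are printed.

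A barcode was kept as a cell with over 400 and below 6000 genes, less than 25% mitochondrial UMIs and less than 3% hemoglobin UMIs. In each library, cells whose doublet score exceeded its 92.5 percentile were dropped, 10693 in all. Cells were clustered (2000 variable genes, 30 components, Leiden resolution 0.9) into 41 clusters, of which 26 were named from marker lists. A cluster without a marker of its class among its leading genes stayed unnamed, a rule added after the leading genes were seen. The 8 genes and all listed genes were left out of the clustering. Names ending in "-like" were rebuilt here. Free RNA was not removed in the values given, and its subtraction was an alternative.

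UMI counts were summed per sample and class (at least 20 cells) and tested with edgeR 4.0.16 (quasi-likelihood, TMM, filterByExpr, R 4.3.3) with sham, day and arm as additive terms and Benjamini-Hochberg adjustment over all genes tested. A call is an adjusted p under 0.05. Sham samples entered the fit to share the estimate of the spread, but in neutrophil-like cells only sham sample 1 had enough cells, and a single sham sample adds nothing to that estimate. DESeq2 1.42.0 was an alternative. The arm by day difference used libraries as samples. Shares used an exact permutation test. On simulated counts for treat against ctrl, the fit recovered 71% of 100 genes changed 4-fold and 97% of 100 changed 16-fold over all cells (16422 genes), and 89% and 100% in neutrophil-like cells (8542 genes). False calls were 7 over all cells and 8 in neutrophil-like cells. The simulated counts held no effect of sham, day or cell composition, and the genes with fewest counts were not changed. These rates may therefore be higher than in the real data. Python 3.11.15 with numpy 2.4.6, pandas 2.3.3, scipy 1.17.1, scikit-learn 1.9.0, igraph 0.11.9 and matplotlib 3.10.9 was used. Depth was 21270647 to 290590249 UMIs per sample, and intervals cover counting error only.

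The members and the gene lists were chosen with earlier results of these data known. The text names the 8 members, called genes of each list (at most 4 per list and comparison, by smallest p), the 3 genes most alike to each member over clusters with at least 100 cells, and leading genes of clusters described. Other settings were DESeq2, no TMM scaling, no filter on low counts, transplant samples alone, no day block, libraries as samples, leaving out samples, cells with at least 1000 UMIs, no doublet removal, free RNA subtraction and Leiden resolution 2. Leaving out single libraries (also from the levels and shares per sample), dropping the hemoglobin limit leaving out samples from the share test and pairing it by day were added after seeing the data.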

Additional observations from a re-analysis of the deposited data

Results flagged for a closer look

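Barcodes with 100 UMIs or fewer, which hold free RNA and no cell, entered no comparison between groups and served only to estimate free RNA, and they carried 7 of the 8 genes above the sham level in all 6 transplant samples, as were 4.52% of the 16422 genes tested over all cells. The genes had been selected with their sham and transplant levels in cells known. The lowest transplant sample was at 3.11 CPM for Mmp8 (sham samples up to 1.68), 8.85 CPM for Mmp9 (up to 1.34), 960 CPM for Slpi (up to 201), 7.05 CPM for Pglyrp1 (up to 3.06), 22.7 CPM for Retnlg (up to 7.75), 61.4 CPM for Mcemp1 (up to 13.4) and 742 CPM for G0s2 (up to 362). For Lcn2, 5 of the 6 transplant samples lay above sham. No group held 4 or more samples, so single outlying samples could not be tested.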

How the results depend on the processing

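For 40 pairs of gene and comparison, 818 values were recomputed over the settings: 729 kept their direction and side of the threshold, 37 changed sign, 16 lost a call and 36 gained one. These pairs covered all 8 genes over all cells and in neutrophil-like cells. They covered only Mmp9, Retnlg, Slpi and Mcemp1 in monocyte-like cells, only Lcn2 and Slpi in BEC-like cells, and no arm by day difference. For treat against ctrl over all cells, all 8 genes kept their direction in the 22 settings tried for each, and only DESeq2 called any (45 genes in all). The day, which both arms share, was the block of the main design and so paired the arms, and without it the neutrophil-like and monocyte-like fits called 0 genes each. Beyond the day, no paired analysis was possible because each arm has 1 sample per day. Library numbers recur in every transplant sample, but the labels do not tie them to shared animals or batches, and they were not used as pairs.

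Calls between arms in neutrophil-like cells (14) came to 54 without TMM, 111 without the filter, 0 with libraries as samples, 35 at resolution 2, 0 without library 2 of ctrl day 1, 7 without library 2 of ctrl day 7, and 0 to 168 with samples left out. In monocyte-like cells (7) they came to 11 with DESeq2, 47 without the filter, 33 in transplant samples alone, 0 with libraries as samples, 1 without library 2 of ctrl day 7, 0 without libraries 2 and 3 of ctrl day 3, and 23 to 64 with samples left out. In BEC-like cells (0) they came to 406 with DESeq2, 1 each without TMM, without the filter and without library 2 of ctrl day 1, 414 with libraries as samples, and 0 to 29 with samples left out. From day 1 to day 7 over all cells (413) they came to 2646 with DESeq2, 275 without TMM, 147 in transplant samples alone, 4239 with libraries as samples and 0 to 1775 with samples left out. In neutrophil-like cells (120) they came to 248 without TMM, 367 without the filter, 270 with libraries as samples, 74 after free RNA subtraction, 202 at resolution 2 and 0 to 599 with samples left out. In BEC-like cells (467) they came to 1590 with DESeq2, 149 in transplant samples alone, 2256 with libraries as samples, 280 after free RNA subtraction, 257 at resolution 2, 827 without library 2 of ctrl day 1, 167 without library 3 of treat day 1 and 1 to 1855 with samples left out. The arm by day difference (22 calls over all cells) gave 0 without TMM and 246 without the filter, and in neutrophil-like cells (0) 13 without the filter. The cause of these moves was not tested. The neutrophil-like share differed by -14.1 points and by -21.1 to -9.50 points with samples left out (exact permutation p of 0.2 to 0.4).

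Sign changes were of uncalled values. Between arms in neutrophil-like cells, log2 fold changes became -0.0187 for Retnlg and -0.0123 for G0s2 without the filter, -0.0265 and -0.0155 with libraries as samples, 0.91 for Lcn2 and -0.56 for Retnlg without the day block, 0.0233 for Lcn2 without library 2 of ctrl day 1, and 0.30 for Mmp8, 0.0678 for Pglyrp1 and -0.0156 for G0s2 without library 2 of ctrl day 7. From day 1 to day 7 in neutrophil-like cells they became -0.0604 for G0s2 with libraries as samples, 0.0289 for Slpi without library 2 of ctrl day 1 and -0.0649 for Retnlg without library 2 of ctrl day 7, and in BEC-like cells Slpi became 0.54 with libraries as samples and 0.36 after free RNA subtraction. With samples left out, the range crossed 0 between arms in neutrophil-like cells for Mmp8 (-0.88 to 0.16), Pglyrp1 (-0.96 to 0.0449), Lcn2 (-1.51 to 0.64), Retnlg (-0.65 to 0.82) and G0s2 (-0.31 to 0.21), and in monocyte-like cells for Slpi (-0.91 to 0.0146), which was called without ctrl day 3 or treat day 3. From day 1 to day 7 it crossed 0 for Retnlg over all cells (-1.55 to 0.66) and in neutrophil-like cells for Mmp8 (-1.22 to 0.56), Pglyrp1 (-1.56 to 0.12), Retnlg (-0.15 to 2.35) and G0s2 (-0.15 to 0.44). With 1 sample per arm and day, no member's time course has a replicate within an arm.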
